A study of Mus musculus with 6 samples.

Results

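The F-box, ASB and kelch proteins are adaptors of the cullin-RING ubiquitin ligases, and their genes were described here in mouse soleus under unloading and electroacupuncture. A member was any gene whose symbol is Fbxo, Fbxl, Fbxw, Asb or Klhl followed by a number. The muscle genes Fbxo30, Fbxo31, Fbxo32, Fbxo40 and Asb2 were left out of the rule and are given below as relatives. With these 5 genes taken out, the rule found 119 of the 19938 genes measured: 36 Klhl, 32 Fbxo, 17 Fbxl, 17 Fbxw and 17 Asb genes. A further 4 symbols (Fbxw14, Fbxw16, Fbxw19 and Fbxw28) were carried only by probe clusters shared with other genes and were not analysed here.

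In a cullin-RING ligase a cullin scaffold holds a RING subunit, which brings the ubiquitin-loaded enzyme, and an exchangeable adaptor, which picks the protein to be tagged. F-box proteins reach CUL1 through the linker SKP1, ASB proteins reach CUL5 through elongins B and C with their SOCS box, and kelch (KLHL) proteins bind CUL3 directly through their BTB domain. The ligases are switched on when the small protein NEDD8 is attached to the cullin. In muscle the family is best known for atrogin-1 (Fbxo32), which is raised in wasting, and for KLHL40 and KLHL41, whose loss causes nemaline myopathy.

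The soleus is a slow postural muscle of the calf. Total RNA from the soleus of male C57BL/6 mice of 8 weeks was hybridized to Affymetrix 1.0 ST arrays in 3 groups of 2 arrays: control, hindlimb suspension, in which the hind limbs are lifted so that they bear no weight, and hindlimb suspension with electroacupuncture, in which current is passed through acupuncture needles. No transgene or allele is named for any group, and the labels do not give the length of suspension, the current or the acupuncture points. The study's title names the question as the effect of electroacupuncture on the muscle atrophy of suspension. The labels call the arrays of a group replicates without saying that they came from separate mice, so the p-values measure only the spread between these arrays, which may be technical. Precision is limited throughout by the number of arrays.

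All values are log2 signals, and a difference is given with its standard error from limma. A call means a p-value adjusted by Benjamini and Hochberg over all 19938 genes under 0.05. The array medians ran from 4.13 to 4.19. Muscle identity was checked with 12 fixed myofibre genes, all of which were above background, and the slow myosin gene Myh7 ran from 11.62 to 12.02. Some genes of fast fibres rose with suspension: Myh4, a fast myosin heavy chain, was at 10.76 and 9.46 in control arrays 1 and 2, at 12.27 and 12.18 under suspension, and at 12.13 and 12.25 with electroacupuncture. Its rise under suspension was 2.12 ± 0.33 (limma, adjusted p = 0.0269), and Actn3, the alpha-actinin of fast fibres, rose by 2.28 ± 0.23 (limma, adjusted p = 0.00618). Of the 12 myofibre genes, 6 were higher and 6 lower in suspension minus control, with differences from -2.00 to 2.28. By limma, 4 of them were called higher and 1 lower (0.537% and 0.512% of all genes). The part of these genes in the differences below was not tested. The arrays measure bulk RNA, in which fewer cells of a type and less RNA per cell cannot be told apart.

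Most adaptor genes were detected. Background was taken from 1027 olfactory receptor genes, whose median signal was 2.10 and whose 95th percentile was 3.50. The mean signal lay above that percentile in 95 of 119 members, against 68.8% of all genes: in 31 of 36 Klhl, 25 of 32 Fbxo, 15 of 17 Fbxl, 15 of 17 Asb and 9 of 17 Fbxw genes. The 8 Fbxw genes at background (Fbxw13, Fbxw15, Fbxw18, Fbxw20, Fbxw21, Fbxw22, Fbxw24 and Fbxw26) are neighbours in one block of the RefSeq gene order, with mean signals from 1.39 to 2.51, and the 9 Fbxw genes outside the block were all above background. Members at background elsewhere included Fbxo5 and Fbxo43, inhibitors of the anaphase-promoting complex in dividing cells and eggs, and Asb17.

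Among the 119 members, a small number were called in suspension minus control, and all of them were kelch genes. Klhl33, Klhl23 and Klhl38 rose and Klhl34 fell, each by at least 1 log2, a size reached by 0.873% of all genes. The calls were thus 4 of 119 members (3.36%), where 1.05% of all genes passed the same threshold. Among all genes, 0.537% were called higher and 0.512% lower. No F-box or ASB member passed the threshold. The F-box genes Fbxo32 and Fbxo31, which the rule leaves out, did pass it and are given below. At an unadjusted p under 0.05, 17 members were counted (14.3%, against 12.7% of all genes), of which 15 were higher and 2 lower, where 6.63% of all genes were higher and 6.09% lower. The control and suspension arrays did not overlap in 50 of 119 members (42%, against 39.8% of all genes). The median difference was 0.04 over the members and 0.01 over all genes.

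**Figure D1:**
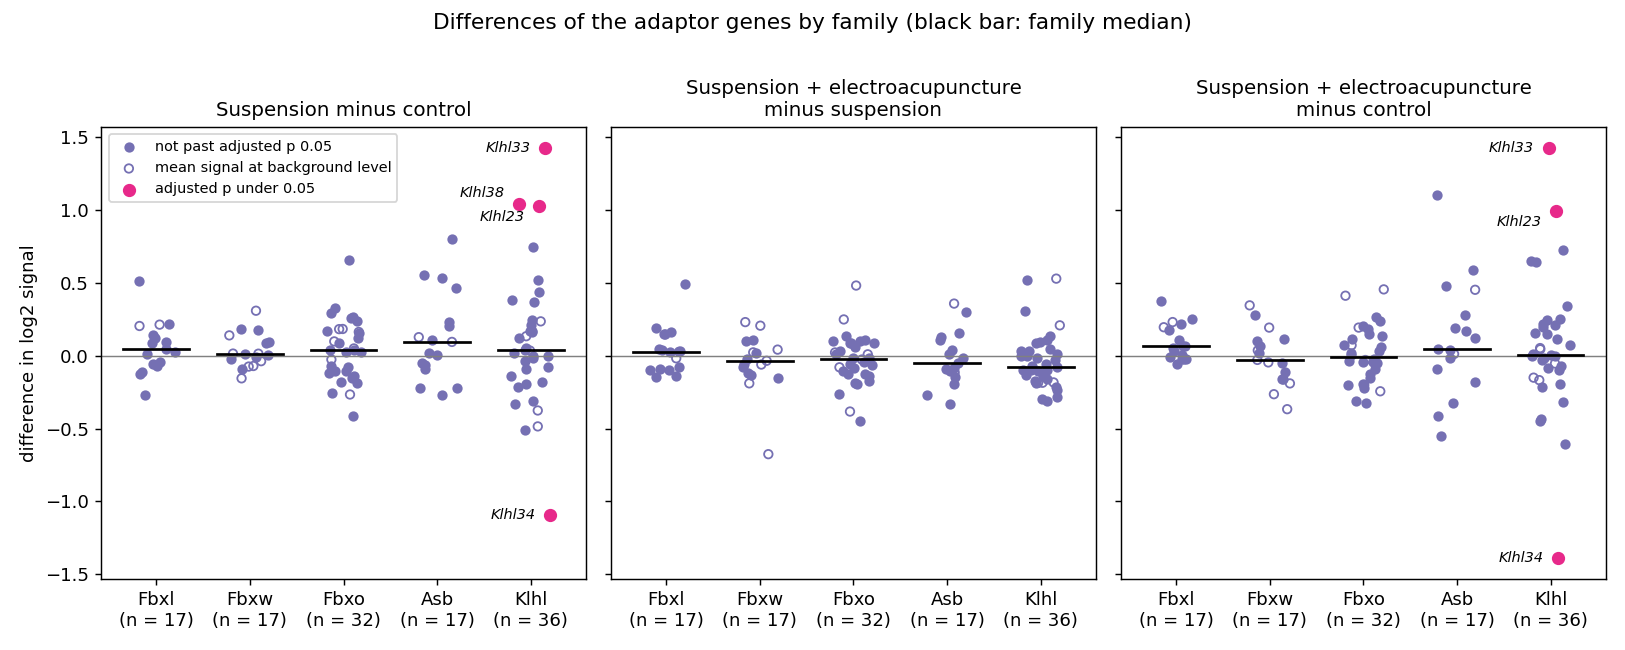
Differences in log2 signal of the 119 adaptor genes (points) in the 3 comparisons, by family, with the family median as a black bar. Open circles mark genes whose mean signal was at background and large filled points mark adjusted p under 0.05: Klhl33, Klhl23, Klhl38 and Klhl34 stand apart for suspension minus control, none is marked when the treated and suspended groups are compared, and the family medians lie between -0.08 and 0.09.

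Klhl33 had the largest difference of the members. Its signal was 6.25 and 6.13 in the control arrays, 7.55 and 7.68 under suspension, and 7.53 and 7.69 with electroacupuncture. Both unloaded groups lay well above control and on top of each other. Suspension minus control was 1.43 ± 0.13 (SE, n = 2 per group; limma, adjusted p = 0.00513), a 2.69-fold rise, and the treated group minus control was also 1.43 ± 0.13 (limma, adjusted p = 0.00764). The treated minus the suspended group was -0.0034 ± 0.13, with a 95% interval from -0.31 to 0.30.

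Klhl23 rose by a factor of 2.03. It was at 5.92 and 6.01 in control, at 6.89 and 7.09 under suspension, and at 6.93 and 6.98 with electroacupuncture. Again both unloaded groups lay above both control arrays, and the treated arrays lay within the range of the suspended ones. The difference was 1.02 ± 0.14 for suspension minus control (limma, adjusted p = 0.016) and 0.99 ± 0.14 for the treated group minus control (limma, adjusted p = 0.0152). The treated minus the suspended group was -0.03, with a 95% interval from -0.34 to 0.27.

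Klhl38 rose by a factor of 2.06. Its signal was 7.80 and 8.31 in control, 9.17 and 9.02 under suspension, and 8.70 and 8.86 with electroacupuncture. The groups did not overlap, with the treated arrays between the other two groups. Suspension minus control was 1.04 ± 0.18 (limma, adjusted p = 0.0345). The treated minus the suspended group was -0.31 ± 0.18 (unadjusted p = 0.112), with a 95% interval from -0.71 to 0.09, and the treated group minus control was 0.73 ± 0.18, which did not pass the threshold (limma, adjusted p = 0.111). In the RefSeq gene order Klhl38 lies directly beside Fbxo32, the atrogin-1 gene, and does not overlap it. Fbxo32 was at 8.39 and 8.77 in control, 9.99 and 9.86 under suspension, and 9.39 and 9.47 with electroacupuncture, with the groups in the same order as those of Klhl38. Anxa13, on the other side of Klhl38, was at background and gave -0.16 for suspension minus control. The measured neighbours of the other called genes were not called: Phospho2 (-0.36) and Ssb (0.09) beside Klhl23, Osgep (-0.31) beside Klhl33, and Smpx (0.55) and Cnksr2 (-0.20) beside Klhl34. The part of gene position was not tested.

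Klhl34 was the only member called lower. It was at 7.29 and 7.32 in control, at 6.30 and 6.13 under suspension, and at 5.87 and 5.96 with electroacupuncture. The groups did not overlap, and the treated arrays were the lowest. Suspension minus control was -1.09 ± 0.13, a 2.13-fold fall (limma, adjusted p = 0.0118), and the treated group minus control was -1.39 ± 0.13, a 2.62-fold fall (limma, adjusted p = 0.00764). The treated minus the suspended group was -0.30 ± 0.13 (unadjusted p = 0.0532), with a 95% interval from -0.60 to 0.01.

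Which members were called changed when single arrays were left out, a step that also lowers the residual degrees of freedom from 3 to 2. The differences for suspension minus control then ran from 1.36 to 1.49 for Klhl33 and from 0.93 to 1.12 for Klhl23. They ran from 0.79 to 1.29 for Klhl38 and from -1.18 to -1.01 for Klhl34. Leaving out an electroacupuncture array does not alter these differences, only their precision. Such a fit leaves a single array in a group. Leaving out a suspension or electroacupuncture array gave fewer calls for that group against control, among the members and over all genes alike. The calls of these fits are therefore not read as a result about the members. Without control array 1 and without control array 2, suspension minus control was 0.96 and 0.53 for Klhl31, and 0.36 and 0.75 for Asb14. The treated group minus control was then 0.47 and 0.98 for Klhl38.

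The sequences before the start sites of the called genes are printed because 3 of the genes rose together and 1 fell. The windows are the 250 bases upstream of the outermost RefSeq start on GRCm38.p6, which 96 of the 119 members have. Klhl23 lies at chr2:69821691-69821940 on the plus strand, Klhl33 at chr14:50897484-50897733 on the minus strand and Klhl34 at chrX:157818185-157818434 on the plus strand. Each is written 5′ to 3′ along the gene, and capitals mark every match, on both strands, to an E-box (CANNTG, the site of MyoD-type factors), a FoxO site (GTAAACA), a MEF2-type site (CTA and TAG with any 4 bases between them), a glucocorticoid receptor site (GNACA and TGTNC with any 3 bases between them) or a TATA box (TATAAA).
Klhl23: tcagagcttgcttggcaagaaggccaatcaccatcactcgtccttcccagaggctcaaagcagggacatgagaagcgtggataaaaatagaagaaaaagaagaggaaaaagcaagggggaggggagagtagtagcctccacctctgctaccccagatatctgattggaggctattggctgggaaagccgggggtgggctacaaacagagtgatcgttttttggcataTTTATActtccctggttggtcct
Klhl33: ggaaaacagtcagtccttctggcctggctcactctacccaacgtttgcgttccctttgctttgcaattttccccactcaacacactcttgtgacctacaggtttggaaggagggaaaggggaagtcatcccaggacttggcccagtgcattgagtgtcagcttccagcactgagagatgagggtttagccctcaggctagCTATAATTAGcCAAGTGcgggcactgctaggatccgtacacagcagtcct
Klhl34: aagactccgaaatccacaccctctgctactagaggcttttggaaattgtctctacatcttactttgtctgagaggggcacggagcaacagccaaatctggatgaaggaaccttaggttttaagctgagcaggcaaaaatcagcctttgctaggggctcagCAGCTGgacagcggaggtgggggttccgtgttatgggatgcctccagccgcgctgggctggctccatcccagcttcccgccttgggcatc

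The Klhl33 window held a MEF2-type match, CTATAATTAG, 50 bases before the start and an E-box 39 bases before it. The Klhl34 window held an E-box 90 bases before the start. The Klhl23 window held a TATA box read on the opposite strand, 23 bases before the start. An E-box was found in 66.1% of all 27025 windows of this length and in 70.8% of the member windows, and a MEF2-type match in 3.23% and 7.29% (7 of 96 member windows). A FoxO site was found in 3.06% of all windows and 2.08% of the member windows, a TATA box in 13% and 7.29%, and a glucocorticoid receptor site in 0.377% and in 0 of 96. None of the FoxO or glucocorticoid receptor letters occurred in the 3 windows shown. A match is a run of letters and not a measured binding site.

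Other kelch genes of muscle missed the threshold. Klhl31, a kelch gene of striated muscle, was at 10.20 and 9.77 in control, 10.67 and 10.80 under suspension, and 10.74 and 10.53 with electroacupuncture. All 4 unloaded arrays were above both controls, and suspension minus control was 0.75 ± 0.17 (limma, adjusted p = 0.0885). A second probe cluster of Klhl31 gave a difference of 0.76. Klhl41, whose protein steadies nebulin in the sarcomere, was at 11.23 and 10.96 in control, 11.06 and 11.21 under suspension, and 11.11 and 11.23 with electroacupuncture. The groups overlapped, and suspension minus control was 0.04 ± 0.15, with a 95% interval from -0.29 to 0.37. Klhl40, a partner of nebulin and leiomodin-3, gave 0.17 ± 0.19, with a 95% interval from -0.26 to 0.60, and its control arrays, 6.37 and 6.96, spanned those of the other groups.

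Kelch genes known from other tissues were below the threshold as well. Klhl3, an adaptor for the WNK kinases of salt handling, was at 4.30 and 3.99 in control, 4.58 and 4.75 under suspension, and 4.89 and 4.71 with electroacupuncture, and differed by 0.52 ± 0.17 (limma, adjusted p = 0.238). Klhl12, an adaptor for the COPII coat protein SEC31, was at 5.04 and 5.26 in control, 4.51 and 4.77 under suspension, and 4.43 and 4.66 with electroacupuncture, and differed by -0.51 ± 0.17 (limma, adjusted p = 0.244). In both genes the unloaded arrays did not overlap the control arrays, in opposite directions. Klhl7, Klhl21 (a mitotic adaptor for Aurora B) and Klhl18 had differences of 0.44, 0.38 and 0.37, with adjusted p-values from limma of 0.21, 0.232 and 0.299. Klhl24, which targets keratin 14 in skin, had a mean signal of 9.41 and a difference of 0.16. In all, 10 of the 36 kelch genes had an unadjusted p under 0.05 for suspension minus control, of which 8 were higher and 2 lower (12.7% of all genes, with 6.63% higher and 6.09% lower), and the 26 others lay between -0.49 and 0.24. Klhl10, at the lower end, was at background.

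**Figure D2:**
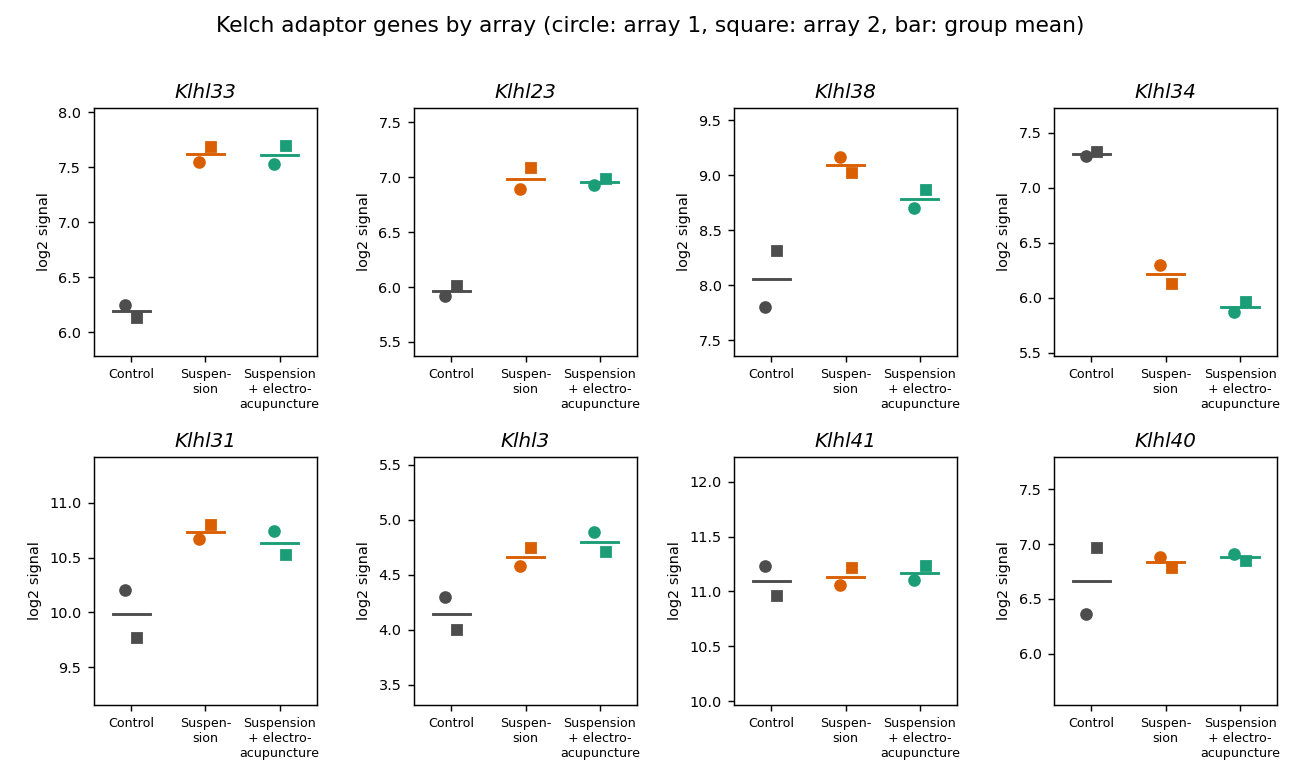
Log2 signal (y axis, the same span in each panel) of 8 kelch genes in the 3 groups (x axis), with a circle for array 1, a square for array 2 and a bar for the group mean. Klhl33, Klhl23 and Klhl38 are higher and Klhl34 lower in all 4 unloaded arrays than in both control arrays, while the groups of Klhl41 and Klhl40 overlap.

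The ASB genes included several that are mainly expressed in striated muscle, and 4 of 17 had an unadjusted p under 0.05 for suspension minus control, all higher, where 6.63% of all genes were higher. Asb15 was at 7.49 and 7.15 in control, 8.06 and 8.18 under suspension, and 8.77 and 8.08 with electroacupuncture. All unloaded arrays were above both controls, and treated array 1 stood above the other treated array by more than the gap between the duplicates of the other groups. Suspension minus control was 0.80 ± 0.22 (limma, adjusted p = 0.149), and the treated group minus control was 1.10 ± 0.22 (limma, adjusted p = 0.0603).

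Asb14 was at 7.93 and 8.32 in control, 8.60 and 8.77 under suspension, and 8.46 and 8.36 with electroacupuncture. Suspension minus control was 0.55 ± 0.16 (limma, adjusted p = 0.165), and the treated arrays lay between the other groups. Asb16 was at 6.97 and 7.29 in control, 7.65 and 7.68 under suspension, and 7.45 and 7.77 with electroacupuncture, a difference of 0.53 ± 0.16 for suspension (limma, adjusted p = 0.188). Asb4, known from blood vessels and the hypothalamus, was at 5.35 and 5.36 in control, 5.78 and 5.85 under suspension, and 5.85 and 6.04 with electroacupuncture. Its duplicates were 0.014 apart in control, 0.068 under suspension and 0.19 with electroacupuncture. The differences from control were 0.46 ± 0.14 for suspension (limma, adjusted p = 0.187) and 0.59 ± 0.14 for the treated group (limma, adjusted p = 0.104). The summed signal of the 6 endothelial markers ran from 1186 to 1392 in control, from 1235 to 1359 under suspension and from 1009 to 1040 with electroacupuncture. All 6 were lower in the treated than in the suspended group, with a median of -0.33. Of the 6, 1 was called lower in the treated group minus control (limma, adjusted p = 0.0135), where 0.587% of all genes were called lower. The part of these markers in the Asb4 values was not tested.

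The other ASB genes differed from control in either direction, below the threshold. Asb10 was at 6.44 and 6.33 in control, 6.14 and 6.10 under suspension, and 5.94 and 6.00 with electroacupuncture. Its groups stepped down without overlap, and the treated group minus control was -0.41 ± 0.13 (limma, adjusted p = 0.215). Asb12 gave -0.22 ± 0.13 under suspension and -0.33 ± 0.13 with electroacupuncture against control. Asb5 had the widest gap between duplicates of any member: it was at 9.03 and 10.19 in the control arrays, 9.40 and 9.38 under suspension, and 8.92 and 9.20 with electroacupuncture. The control arrays spanned all suspended arrays, and suspension minus control was -0.22 ± 0.31. For the treated group minus control Asb5 gave -1.13 without control array 1 and 0.026 without control array 2. For suspension minus control Asb5 gave -0.80 without control array 1 and 0.36 without control array 2. Asb8, Asb11 and Asb18 had suspension differences of -0.06, 0.23 and 0.11. The median difference of the family was 0.09 for suspension minus control.

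**Figure D3:**
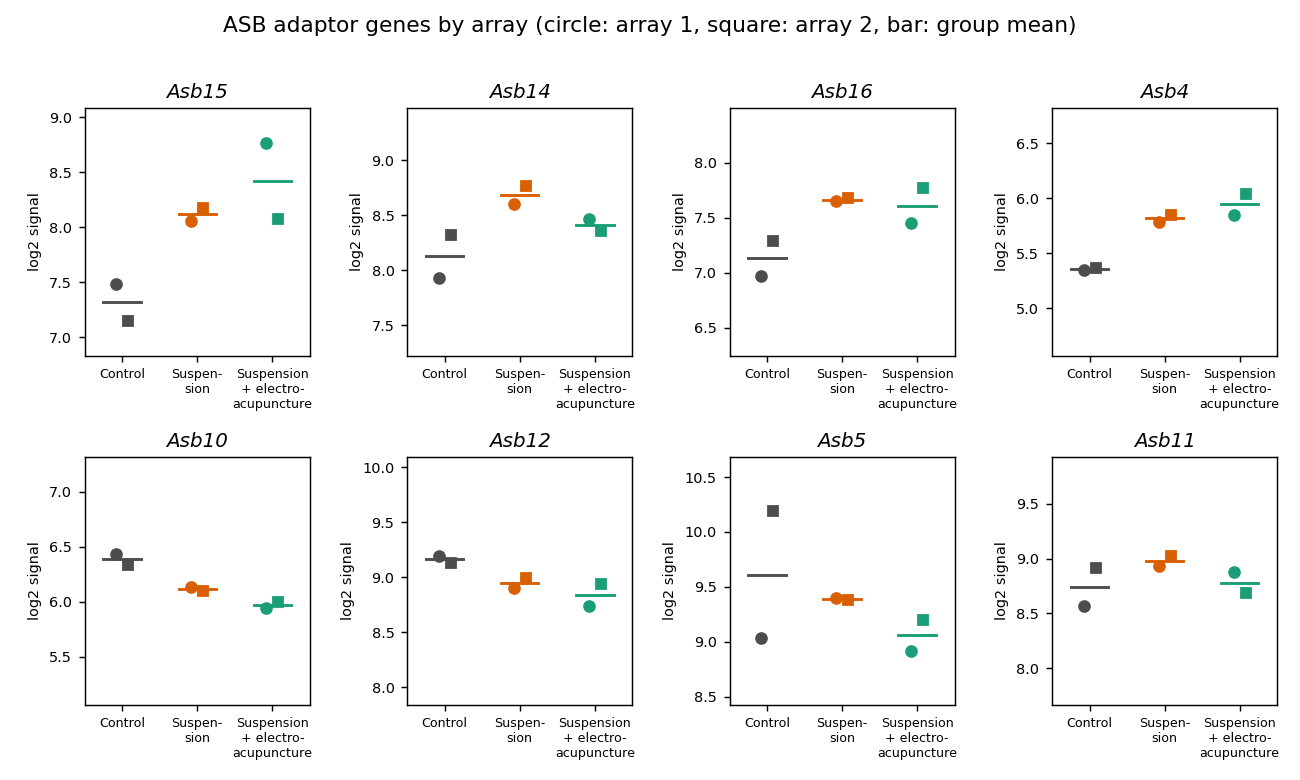
Log2 signal (y axis, the same span in each panel) of 8 ASB genes in the 3 groups (x axis), with a circle for array 1, a square for array 2 and a bar for the group mean. Asb15, Asb14, Asb16 and Asb4 are higher in all 4 unloaded arrays than in both control arrays, and Asb10 and Asb12 are lower. The control arrays of Asb5 lie 1.15 apart. None of the differences between groups passed the threshold.

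Among the F-box genes with leucine-rich repeats, Fbxl20 had the smallest p for suspension minus control. Its protein is known as an adaptor for the synaptic protein RIM1. It was at 6.45 and 6.44 in control, 6.95 and 6.96 under suspension, and 6.78 and 6.85 with electroacupuncture. The groups did not overlap, and suspension minus control was 0.51 ± 0.12 (limma, adjusted p = 0.106). Fbxl22, a sarcomeric F-box gene first described in heart, was at 4.07 and 4.42 in control, 4.04 and 3.91 under suspension, and 4.48 and 4.46 with electroacupuncture. The treated minus the suspended group was 0.49 ± 0.17 (unadjusted p = 0.0192), with the treated arrays above all others. Fbxl4, needed for mitochondrial DNA upkeep, and Fbxl17, which removes mismatched BTB dimers such as those of kelch proteins, differed by 0.14 and 0.12 under suspension. Over the family, suspension differences ran from -0.27 (Fbxl22) to 0.51 (Fbxl20).

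The F-box genes with WD repeats were little different under suspension. No Fbxw gene had an unadjusted p under 0.05 for suspension minus control, and the differences ran from -0.16 to 0.31, with both ends at background genes. Fbxw7, the adaptor for cyclin E, Myc, Jun and Notch, was at 5.39 and 5.37 in control, 5.41 and 5.35 under suspension, and 5.48 and 5.18 with electroacupuncture. Its suspension difference was 0.01 ± 0.15, with a 95% interval from -0.34 to 0.35. Fbxw8, which works with CUL7 and is known for targeting IRS1, gave 0.18 ± 0.15. Fbxw11, the second beta-TrCP gene, gave -0.02 ± 0.13, and Fbxw5 and Fbxw2, with mean signals of 8.42 and 7.15, gave -0.01 and 0.01.

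The remaining F-box genes, named Fbxo for having no shared substrate domain, held 2 of 32 with an unadjusted p under 0.05 for suspension minus control, against 12.7% of all genes. Fbxo3, which targets the F-box protein FBXL2, was at 7.86 and 7.89 in control, 8.15 and 8.19 under suspension, and 8.10 and 8.13 with electroacupuncture. Its duplicates were close in every group, and the difference was 0.29 ± 0.12 (limma, adjusted p = 0.356). Fbxo44 was at 4.55 and 5.40 in control, 5.84 and 5.42 under suspension, and 5.34 and 5.03 with electroacupuncture, a difference of 0.65 ± 0.27 (limma, adjusted p = 0.368). That difference was 0.23 without control array 1 and 1.08 without control array 2, and the treated group minus control turned from 0.21 to -0.22 without control array 1. Its neighbours in the RefSeq gene order, Fbxo6 and Fbxo2, belong to the same group of F-box proteins, several of which bind glycoproteins. Control array 1 was also the lowest for Fbxo6, at 5.92 against 6.58 in control array 2, while for Fbxo2 it was the highest, at 4.14 against 3.63.

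Fbxo25, the closest relative of atrogin-1, was at 5.26 and 5.59 in control, 5.45 and 5.57 under suspension, and 5.23 and 5.54 with electroacupuncture. The groups overlapped, with a suspension difference of 0.09 ± 0.17. Fbxo7, mutated in a form of parkinsonism, gave -0.12 ± 0.15 under suspension, with a 95% interval from -0.46 to 0.23. Fbxo9, Fbxo33 and Fbxo34 gave 0.27, 0.33 and -0.41, and Fbxo21 gave 0.04. The family median was 0.04.

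With electroacupuncture, no member differed from suspension alone at the threshold, and 0 of all 19938 genes did (0% called). At an unadjusted p under 0.05, 4 of 119 members were counted (3.36%), against 3.07% of all genes. These were Klhl29, Fbxl22, Fbxw22 and Klhl10. Klhl29 was at 4.83 and 4.74 in control, 4.77 and 4.44 under suspension, and 5.13 and 5.12 with electroacupuncture, and the treated minus the suspended group was 0.52 ± 0.16 (unadjusted p = 0.0113). Fbxw22 and Klhl10 were at background, with differences of -0.68 ± 0.21 and 0.53 ± 0.22. The treated and suspended arrays did not overlap in 39 members (32.8%, against 32.6% of all genes). The treated group was higher in 50 of 119 members (48.4% of all genes were higher), and the median difference was -0.03, against -0.01 over all genes. By family the medians were 0.03 for Fbxl, -0.02 for Fbxo, -0.03 for Fbxw, -0.05 for Asb and -0.08 for Klhl.

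The widest differences above background were -0.45 (Fbxo44) and 0.52 (Klhl29). Klhl30, a kelch gene of muscle, was at 6.68 and 6.65 in control, 6.61 and 6.64 under suspension, and 6.40 and 6.29 with electroacupuncture. The control and suspended arrays lay close together, and the treated arrays were lower, with a difference from suspension of -0.28 ± 0.13 (unadjusted p = 0.0567). The summed signal of the 8 macrophage markers was 424 and 569 in control, 866 and 482 under suspension, and 1123 and 758 with electroacupuncture, and its part in these differences was not tested. The fibroblast and tendon markers summed to 5002 and 5031 in control, 4604 and 3839 under suspension, and 5215 and 5226 with electroacupuncture. Single markers differed from those sums: of the 9 genes, 2 were called lower for suspension minus control and 3 for the treated group minus control, with medians of -0.63 and -0.65, and the mean log2 signal went from 7.87 and 7.93 in control to 7.51 and 6.86 under suspension and 7.20 and 7.32 with electroacupuncture. The 7 adipocyte markers had a median of -0.69 for suspension minus control and were higher in the treated than in the suspended group by a median of 0.42, with 0 called. Their mean log2 signal was 6.99 and 8.54 in control, 7.23 and 7.07 under suspension, and 7.62 and 7.51 with electroacupuncture, so that control array 2 was the highest. The part of these markers was not tested either.

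Set against control, the treated group had 3 called members (2.52%), where 1.03% of all genes were called: Klhl33 and Klhl23 rose and Klhl34 fell (0.446% of all genes were called higher and 0.587% lower). This comparison shares its control arrays with suspension minus control. At an unadjusted p under 0.05, 15 members were counted (12.6%, against 12.8% of all genes), 9 higher and 6 lower (6.47% and 6.34% of all genes), and the groups did not overlap in 51 members (42.9%, against 41.8%). Asb15, at 1.10, was the only uncalled member with a difference of at least 1 log2, which 0.938% of all genes had. Klhl12 and Klhl3 had differences of -0.61 and 0.65, with adjusted p-values from limma of 0.165 and 0.139. Klhl2, the other WNK adaptor, was at 4.42 and 4.48 in control, 4.33 and 4.16 under suspension, and 3.95 and 4.06 with electroacupuncture, and differed by -0.45 ± 0.16 from control (limma, adjusted p = 0.264).

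The ligase core that carries these adaptors was measured in 14 genes, of which 0 were called in any comparison by limma, and 4 had an unadjusted p under 0.05 for suspension minus control, against 12.7% of all genes. Cul3, the scaffold of the kelch adaptors, was at 8.88 and 8.71 in control, 9.04 and 9.27 under suspension, and 9.24 and 9.02 with electroacupuncture, a difference of 0.36 ± 0.15 (limma, adjusted p = 0.343). Rbx1, the RING subunit of most cullin ligases, was at 8.52 and 8.61 in control, 8.06 and 8.20 under suspension, and 8.12 and 8.36 with electroacupuncture, a difference of -0.43 ± 0.14 (limma, adjusted p = 0.211). The scaffold and linker of the F-box adaptors, Cul1 and Skp1, gave 0.24 and 0.06. Cul5 and the elongins Elob and Eloc, which serve the ASB adaptors, gave 0.16, 0.37 and -0.33. Of 24 genes of NEDD8 attachment and removal, adaptor exchange and the ubiquitin-conjugating enzymes that cullins recruit, 0 were called in any comparison. Uba3, the catalytic subunit of the NEDD8-activating enzyme, gave -0.50 ± 0.14 under suspension (limma, adjusted p = 0.166), the only gene of that list with an unadjusted p under 0.05 in the comparison, against 12.7% of all genes. Ube2f, the NEDD8-conjugating enzyme of CUL5, was at 5.41 and 5.66 in control, 5.54 and 5.49 under suspension, and 4.945 and 4.997 with electroacupuncture. Only the treated arrays were low, and the difference from suspension was -0.54 ± 0.15 (unadjusted p = 0.00534).

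Adaptors outside the naming rule and partners of the members were also counted. Of 29 other cullin adaptors 0 were called in any comparison, with unadjusted p under 0.05 in 5 for suspension minus control, against 12.7% of all genes. Crbn, the cereblon adaptor of CUL4, came nearest, at 7.24 and 7.45 in control, 7.96 and 8.10 under suspension, and 8.09 and 7.94 with electroacupuncture, a difference of 0.69 ± 0.14 (limma, adjusted p = 0.0633). Of 17 known partners and substrates of members, 0 were called for suspension minus control (8 at an unadjusted p under 0.05, against 12.7% of all genes) and 1 for the treated group minus control. That gene, Irs1, the insulin receptor substrate, was at 7.10 and 7.28 in control, 6.74 and 6.66 under suspension, and 6.23 and 6.36 with electroacupuncture, and fell by 0.89 on the log2 scale in the treated group (SE 0.14; limma, adjusted p = 0.0244). With either electroacupuncture array left out, it missed the threshold, and fewer of all genes were called as well. The sarcomere genes Neb and Lmod3, partners of Klhl40 and Klhl41, gave 0.30 ± 0.15 and -0.10 ± 0.16 under suspension.

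Of the muscle relatives left out by the rule, Fbxo32 and Fbxo31 rose under suspension by 1.35 ± 0.15 (limma, adjusted p = 0.00854) and 1.25 ± 0.19 (limma, adjusted p = 0.0234). With either suspension array left out Fbxo32 missed the threshold, and Fbxo31 missed it without suspension array 1, without control array 2 and without each electroacupuncture array. Fbxo32 was also called in the treated group minus control (0.85 ± 0.15; limma, adjusted p = 0.0404), a call that was lost when any array but control array 2 was left out. Fewer of all genes were called as well without a suspension or an electroacupuncture array. Fbxo30, Fbxo40 and Asb2 gave -0.09, 0.05 and -0.01 for suspension minus control, and Asb2 gave -0.56 ± 0.12 for the treated minus the suspended group (limma, adjusted p = 0.975).

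**Figure D4:**
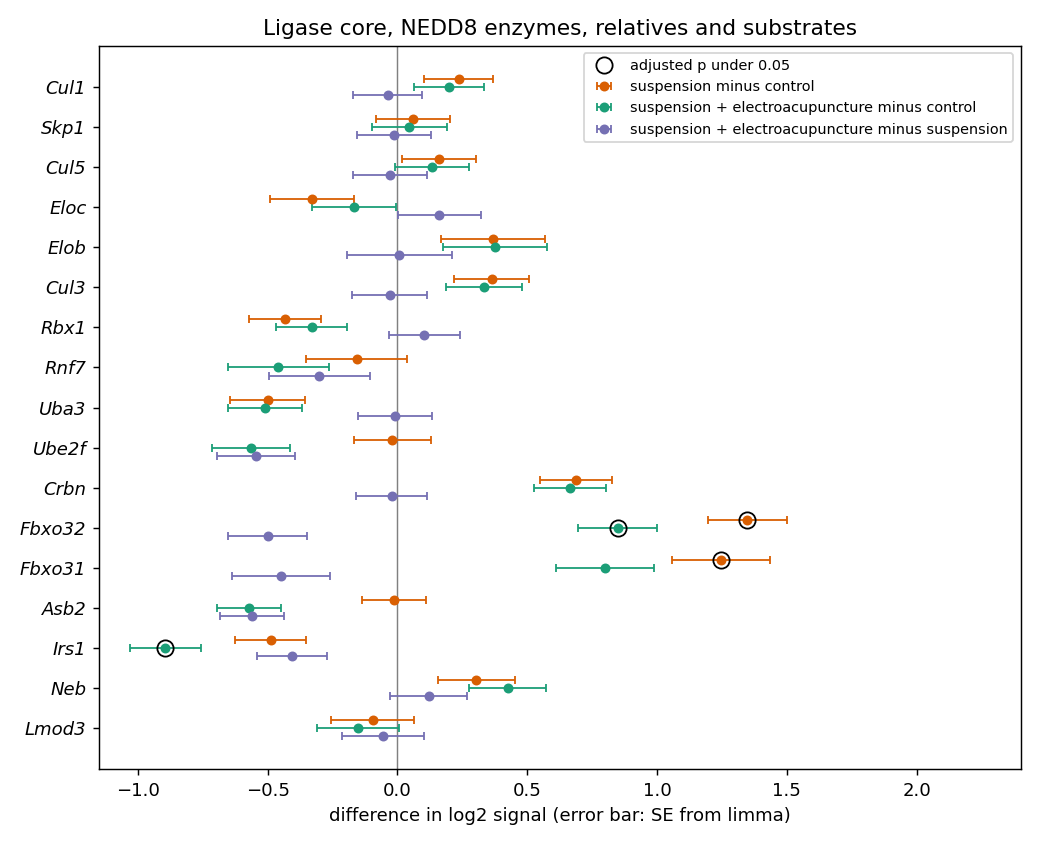
Differences in log2 signal (x axis, with the standard error from limma) of 17 genes of the ligase core, NEDD8 enzymes, other adaptors, left-out relatives and substrates in the 3 comparisons (colours). Ringed points have an adjusted p under 0.05: Fbxo32 and Fbxo31 for suspension minus control, and Fbxo32 and Irs1 for the treated group minus control; no core or NEDD8 gene is ringed.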

How the data were processed

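Gene expression was measured in mouse soleus on 6 arrays in 3 groups of 2, grouped by their labels. The authors deposited log2 signals of 35556 probe clusters, computed by RMA in Affymetrix Expression Console, per the submitters' processing notes, and these were used as they stood. Versions and the genome build are not given in the sources used here. RMA makes the signal distributions of all arrays alike, so a shift of all genes together would not be seen.

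Clusters were named through the platform annotation: 21789 had 1 gene symbol, 1621 had several and 12146 had none listed. The latter groups were left out. By Entrez ID, 21698 clusters were matched to current symbols. For the 999 genes with several clusters (5 of them members) the cluster with the highest mean was kept, with no filter on signal. Promoter windows and gene order came from RefSeq tables on GRCm38.p6. Klhl38 has no window there.

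Differences were estimated in a single linear model of the 6 arrays with limma 3.58.1 (R 4.3.3) with a variance trend (3 residual and 5.88 prior degrees of freedom; median standard error of a difference 0.173), and p-values were adjusted by Benjamini and Hochberg. Intervals are 95% on 8.88 degrees of freedom. A permutation of 2 against 2 arrays cannot go below p = 0.333, so no exact test was used. The procedure was also run on simulated arrays with known changes, and the outcome is not given here. Noise was drawn independently for each gene there, so the simulation cannot speak for deviations that many genes share on an array. No set test was run.

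The members, the gene lists and the rule for naming genes were chosen with earlier results of these data known, so no pattern here is independent support. The rule picked members called in any comparison, the 4 of each family with the smallest p per comparison above background, the 3 with the highest mean signal and the one with the widest duplicate gap of each family, and a fixed set of muscle or textbook members. Not all of these are described. Left out, with their values known and none of them called, were Fbxl6, Fbxl7, Fbxl12, Fbxl15, Fbxl18, Fbxl21 and Klhl1. So were Fbxo8, Fbxo11, Fbxo22, Fbxo27, Fbxo28, Fbxo36, Fbxo48, Fbxw4, Fbxw10 and Fbxw17. From each list up to 3 genes were named per comparison, with core subunits and relatives given for their role. Klhl2, Klhl7, Klhl10, Klhl12, Klhl18, Fbxw22, Fbxo2 and Fbxo6 were named in addition, with their values already known. The alternatives tried were array weights, other priors for the variance, a signal filter, renormalization, other choices of cluster, fits restricted to the compared groups, a replicate block, an adjusted p of 0.1 and each array left out.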

Additional observations from a re-analysis of the deposited data

How the results depend on the processing

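In suspension minus control 4 members and 209 of all genes were called. The member count was 0 when every cluster was fitted by itself (35556 clusters), where 1 of all genes was called. It was 2 when the compared groups were fitted alone and 3 without the variance trend, where 68 and 80 of all genes were called. In the treated group minus control 3 members and 206 of all genes were called. There the member count was 0 with every cluster by itself, where again 1 of all genes was called. It was 4 with quantile normalization again and cyclic loess (Klhl38 added) and with median centring (Asb15 added), where 312, 304 and 226 of all genes were called. Fits with an array left out are described above. It was 0 in the treated minus the suspended group under every alternative run. Of the calls, Klhl33 for suspension minus control was lost only with every cluster by itself (adjusted p = 0.101), Klhl34 in 3 of 17 alternatives, Klhl23 in 6 and Klhl38 in 9. These 4 genes kept their direction under every alternative run. Of the 255 differences of genes picked by the naming rule, described or not, 84 changed sign under some alternative, and 0 of those had an unadjusted p under 0.05. The member medians moved by less than 0.048 throughout, which is the within-group SD of the array medians over the members. The medians themselves were 0.035, -0.033 and 0.022, smaller in size than that SD, so this does not show that they were stable.

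Counts for the other lists changed as follows. The left-out relatives called for suspension minus control (2) numbered 1 without the variance trend, 0 with every cluster by itself, 1 with the compared groups alone and 0 to 2 with each array left out. For the treated group minus control (1) they numbered 0 without the trend, with every cluster by itself, with the compared groups alone and with the replicate block, 2 at an adjusted p of 0.1, and 0 to 1 with each array left out. The other adaptors (0) numbered 1 in both comparisons with control under the signal filter, quantile normalization again, cyclic loess and an adjusted p of 0.1, and 0 to 1 with each array left out. The partners and substrates for suspension minus control (0) numbered 1 with quantile normalization again, cyclic loess and an adjusted p of 0.1, and 0 to 1 with each array left out. For the treated group minus control (1) they numbered 0 without the trend, with the mean of all clusters, with every cluster by itself and with the replicate block, 2 with quantile normalization again, cyclic loess and an adjusted p of 0.1, and 0 to 2 with each array left out. The causes were not tested.

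Replicate numbers did not pair the arrays: deviations of same-numbered arrays correlated at -0.16 for control and suspension, 0.017 for control and the treated group, and -0.016 for suspension and the treated group. With replicate number as a block, 3 members were called in suspension minus control, 0 in the treated minus the suspended group and 3 in the treated group minus control. Of all 19938 genes, 102, 0 and 127 were called there. With the suspension numbers crossed, an alternative chosen after seeing the data, the member counts were 5, 0 and 5. The counts over all genes rose as well, to 266 and 285 in the comparisons with control, and stayed at 0 in the other.

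Duplicates differed with an SD over genes of 0.357 in control, 0.293 in suspension and 0.251 in the treated group, while the fit assumes one spread for all.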
